A study of Mus musculus with 12 samples.

Results

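Transcripts of 10 heat shock and cold inducible genes were followed over the day in pancreas of young and old mice. They were chosen by symbol from the 40840 genes of the count table: Hspa8, Hsph1, Dnaja1, Dnajb1, Hsp90aa1, Hsp90ab1, Hspa1a and Hspa1b on the heat shock side and Cirbp and Rbm3 on the cold side. Whole pancreas came from male mice of the inbred strain C57BL/6J, aged 5 months (Young) or 25 months (Old). Mice of both ages had been housed singly for 4 weeks on a light-dark cycle and received no treatment that the labels record. Polyadenylated RNA was sequenced in 12 libraries, 1 per age at each labelled zeitgeber time of 4, 8, 12, 16, 20 and 24 h, with tissue collected in darkness. Whether each library stands for 1 mouse is not stated in the labels, and p-values therefore measure only the spread between libraries, part of which may be technical.

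Heat shock proteins are chaperones that hold, refold or pass on unfolded proteins, and the transcription factor HSF1 raises their genes when proteins unfold, as in heat. Cirbp and Rbm3 encode RNA-binding proteins whose transcripts are known to accumulate under mild cold. In mouse liver, heat shock transcripts are known to peak in the active night, when body temperature is high, and Cirbp to peak in the resting phase, when it is low.

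The library labelled Young 4 h stood apart and went against its tissue label. It held 2918805 counts, and the other 11 held 1030189 to 1404038. Summed markers of central neurons reached 954.4 CPM (counts scaled to library size and composition) there, with 8 of 8 genes detected, and at most 9.463 CPM in the other 11. Acinar cell markers, which define the digestive tissue of the pancreas, summed to 91010 CPM in Young 4 h and to between 234000 and 366800 CPM elsewhere. This library was therefore left out of the fits given first, which used 5 Young and 6 Old libraries, and the fits with it are given separately. In the 11 libraries 1 count equalled 0.749 to 1.05 CPM. In whole tissue, fewer cells of a type and less RNA per cell cannot be told apart.

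Upstream sequence is shown first for the genes in which the letters recognised by the temperature responses were found. HSF1 binds inverted repeats of GAA, searched here as GAANNTTC or TTCNNGAA, each of which reads the same on both strands. The element described for cold induction of mouse Cirbp was searched as TCCCCGCC or, on the other strand, GGCGGGGA. RefSeq promoter sequences of GRCm38.p6 matched 6 of the 10 genes (Hsph1, Dnaja1, Dnajb1, Hspa1a, Hspa1b and Cirbp), and the 250 bases before each annotated start were read 5′ to 3′ on the strand of the gene. Capitals mark the searched letters.
Hsph1, GRCm38.p6, chr5:149636337-149636586, minus strand: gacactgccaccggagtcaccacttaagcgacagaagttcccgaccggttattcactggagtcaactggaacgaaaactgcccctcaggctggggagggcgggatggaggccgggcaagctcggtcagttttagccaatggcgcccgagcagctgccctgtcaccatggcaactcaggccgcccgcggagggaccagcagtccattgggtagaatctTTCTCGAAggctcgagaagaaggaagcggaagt
Dnaja1, GRCm38.p6, chr4:40722218-40722467, plus strand: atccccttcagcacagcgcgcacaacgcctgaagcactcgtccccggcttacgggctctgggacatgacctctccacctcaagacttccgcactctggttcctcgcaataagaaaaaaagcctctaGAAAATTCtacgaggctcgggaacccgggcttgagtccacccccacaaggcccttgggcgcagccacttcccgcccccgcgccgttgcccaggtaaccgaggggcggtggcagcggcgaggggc
Hspa1b, GRCm38.p6, chr17:34959239-34959488, minus strand: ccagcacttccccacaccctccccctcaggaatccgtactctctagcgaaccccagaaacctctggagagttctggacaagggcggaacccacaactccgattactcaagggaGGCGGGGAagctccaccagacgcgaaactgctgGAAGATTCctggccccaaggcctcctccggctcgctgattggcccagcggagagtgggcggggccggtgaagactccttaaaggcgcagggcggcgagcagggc
Cirbp, GRCm38.p6, chr10:80167589-80167838, plus strand: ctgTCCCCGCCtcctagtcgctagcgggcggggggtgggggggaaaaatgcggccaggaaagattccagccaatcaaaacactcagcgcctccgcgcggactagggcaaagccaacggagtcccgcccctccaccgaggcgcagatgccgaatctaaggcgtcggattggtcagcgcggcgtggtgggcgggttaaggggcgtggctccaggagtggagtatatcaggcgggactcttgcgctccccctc
The heat shock letters lay 33 to 26 bases before the start of Hsph1 as TTCTCGAA, 124 to 117 bases before that of Dnaja1 as GAAAATTC, and 104 to 97 bases before that of Hspa1b as GAAGATTC. The Hspa1a window differed from that of Hspa1b at 3 of 250 bases and held the same letters at the same place. Of all 32851 windows of that length, 12.8% held the heat shock letters and 0.466% held a run of 3 alternating units (GAANNTTCNNGAA or TTCNNGAANNTTC), which none of the windows of these genes did. The cold letters lay 247 to 240 bases before the first start of Cirbp and were also present in both Hspa1 windows and in the windows of the other Dnaja1 starts, against 4.64% of all windows. Neither window of Dnajb1 held either motif. A match of letters is a description of the sequence and not a measured binding site.

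Per kilobase of exon, Hsp90ab1 was the most abundant of the 10 transcripts and Hspa1a the least. Hsp90ab1, the constitutive cytosolic HSP90, had a mean level of 186 ± 24.1 CPM per kb (SD, n = 11 libraries). Hspa8, the constitutive cytosolic HSP70, had 43.5 ± 22.1 CPM per kb, and Hsp90aa1, the inducible HSP90, had 28.4 ± 14.9 CPM per kb. The lowest Hsp90ab1 level, 148 CPM per kb, lay above the highest of Hspa8, 93.9 CPM per kb, while the ranges of Hspa8 and Hsp90aa1 overlapped. Rbm3 followed with 5.17 ± 1.13, Hsph1 with 3.57 ± 2.37 and Cirbp with 2.41 ± 1.43 CPM per kb, and these 3 ranges overlapped. The range of Dnajb1, at 1.29 ± 0.539 CPM per kb, overlapped those of Cirbp above it and of Dnaja1 below it, at 0.754 ± 0.439. Hspa1b had 0.358 ± 0.542 and Hspa1a 0.0522 ± 0.173 CPM per kb, both at the limit of these libraries.

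Of the 10 genes, 5 had enough counts for the fit: Hspa8, Hsph1, Hsp90aa1, Hsp90ab1 and Rbm3. A 24 h curve shared by both ages was called for 2 of these 5, Hspa8 and Hsp90aa1, where 1.49% of all 5852 genes tested were called. The calls rest on edgeR's quasi-likelihood test with a Benjamini-Hochberg adjusted p under 0.05. Amplitude is the height of the fitted peak over the fitted mean, on the log2 scale, and its median was 0.77 over the 5 genes and 0.23 over all genes tested. Fitted peaks of 4 of the 5 fell between 12 and 20 h, as did those of 34.5% of all genes tested.

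Hspa8 encodes HSC70, the chaperone that binds nascent and unfolded proteins in unstressed cells (chromosome 9, 40801276 to 40805202, GRCm38.p6). Its level in Young was 116 CPM at 8 h, 241 at 12 h, 319 at 16 h, 123 at 20 h and 142 at 24 h. In Old it was 105 CPM at 4 h, 133 at 8 h, 170 at 12 h, 404 at 16 h, 156 at 20 h and 148 at 24 h. The 16 h library was the highest of its age in both, and the ranges of the ages overlapped. The shared log2 amplitude was 0.77 with a peak at 15.6 h (edgeR adjusted p = 0.00393), and least squares gave 0.72 ± 0.20 (SE) and 15.5 ± 0.9 h. By that p the gene ranked 21 among the 5852.

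Hsp90aa1 encodes the stress-inducible cytosolic HSP90, which matures kinases and steroid receptors (chromosome 12, 110691036 to 110696395). In Young its level was 54 CPM at 8 h, 141 at 12 h, 254 at 16 h, 86.6 at 20 h and 112 at 24 h. In Old it was 56.2 CPM at 4 h, 56 at 8 h, 80.5 at 12 h, 157 at 16 h, 114 at 20 h and 117 at 24 h. The lowest levels stood at 8 h in Young and at 4 and 8 h in Old, and the highest at 16 h in both ages. The shared log2 amplitude was 0.79 with a peak at 17.4 h (edgeR adjusted p = 0.014), and least squares gave 0.75 ± 0.22 (SE) and 17.4 ± 1.0 h.

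Hsph1 encodes HSP110, which releases nucleotide from HSP70 and so drives its cycle (chromosome 5, 149616843 to 149636498). In Young it had 16.8 CPM at 8 h, 65.6 at 12 h, 37.9 at 16 h, 16.7 at 20 h and 26.1 at 24 h, from 17 to 77 counts. In Old it had 3 CPM at 4 h, 12.9 at 8 h, 15.3 at 12 h, 42.1 at 16 h, 26.3 at 20 h and 22.6 at 24 h, from 4 to 51 counts. Young 12 h and Old 16 h were the highest libraries of their ages, and Old 4 h was the lowest of all. Its fitted log2 amplitude, 0.91 with a peak at 15.8 h, was the largest of the 5 but did not pass the test (edgeR adjusted p = 0.138, unadjusted p = 0.0035). Least squares gave 0.93 ± 0.36 (SE).

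Hsp90ab1 encodes the constitutive partner of Hsp90aa1 (chromosome 17, 45567778 to 45573261). Its level ran from 445 to 660 CPM with a median of 547 CPM in 5 Young libraries, and from 500 to 693 CPM with a median of 555 CPM in 6 Old libraries. The 16 h library was again the highest of each age, but the highest of all 11 was only 1.56 times the lowest, against 3.85 times for Hspa8, 4.71 times for Hsp90aa1 and 21.9 times for Hsph1. The log2 amplitude was 0.20 with a peak at 13.5 h and did not pass the test (edgeR adjusted p = 0.505).

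**Figure D1:**
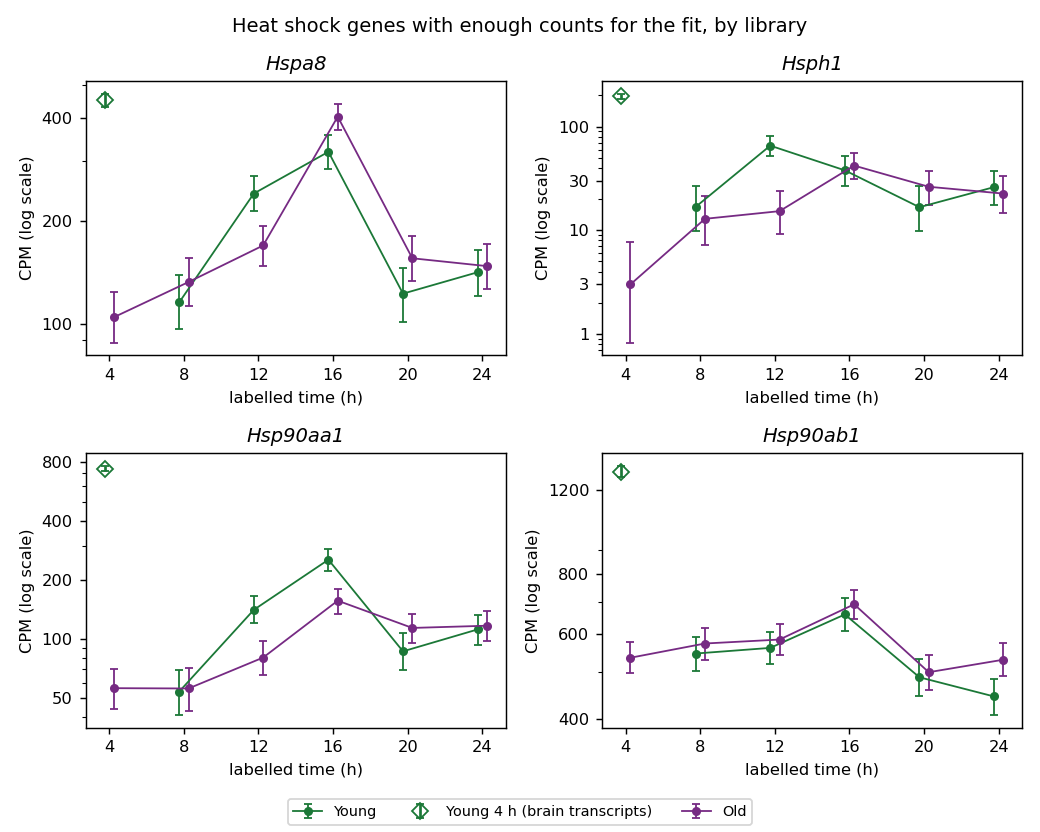
CPM (log axis) of Hspa8, Hsph1, Hsp90aa1 and Hsp90ab1 against labelled time in hours, 1 point per library, Young in green and Old in purple, with exact Poisson intervals at 95% for counting error and an open diamond for the library labelled Young 4 h. Hspa8 reached 319 CPM in Young and 404 CPM in Old at 16 h, and Young 4 h lay above all other libraries for these 4 genes.

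These calls rested on few libraries. Hspa8 stayed past the threshold with any 1 of 10 of the 11 libraries left out, and lost it without Old 16 h (log2 amplitude 0.56, edgeR adjusted p = 0.0914). Hsp90aa1 stayed past it with any 1 of 6 libraries left out, and lost it without Young 8 h (adjusted p = 0.0929), Young 16 h (0.0634), Old 4 h (0.0656), Old 8 h (0.0773) or Old 16 h (0.0593). Hsph1 was called without Young 20 h (adjusted p = 0.0313) or Old 24 h (0.0402). Fits without both libraries of 1 time were added after seeing the data. Without both 16 h libraries the edgeR test called 0 of the 5, against 41 of 5972 genes. Hspa8 then had a log2 amplitude of 0.40 (adjusted p = 0.466, unadjusted p = 0.0308) and Hsp90aa1 one of 0.53 (adjusted p = 0.344, unadjusted p = 0.0136), while Hsph1 had 0.92 (adjusted p = 0.444). Without both 8 h libraries Hspa8 alone was called (adjusted p = 0.0491), and Hsp90aa1 had 0.61 (0.371). Hspa8 and Hsp90aa1 were called without both 12 h, both 20 h or both 24 h libraries. Without both 24 h libraries Hsph1 was called as well (1.52, edgeR adjusted p = 0.0065). Over all genes these fits called 56 of 5907, 81 of 5982 and 88 of 5893, in that order.

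**Figure D2:**
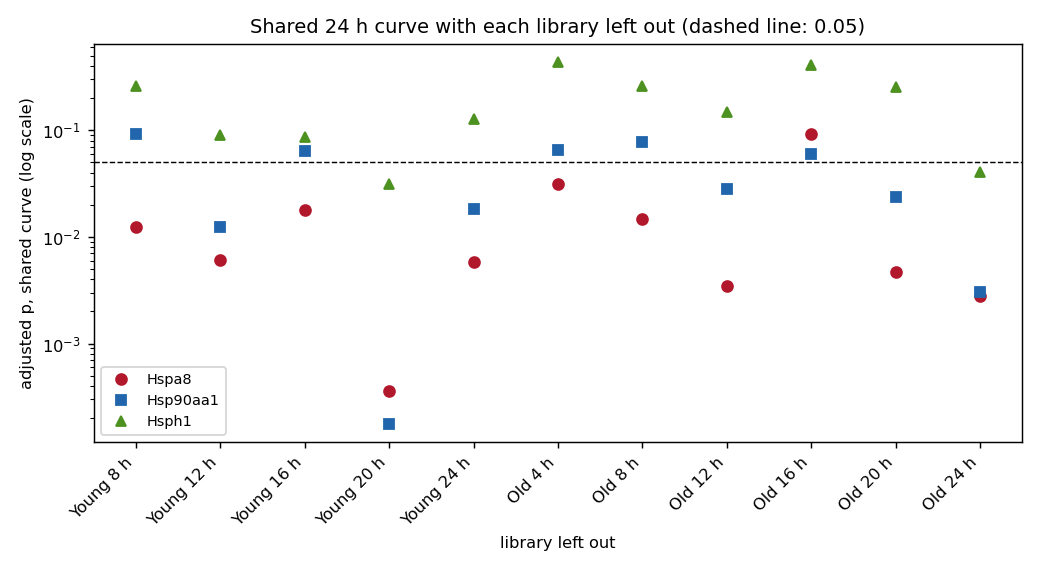
Adjusted p (log axis) of the shared 24 h curve of Hspa8, Hsp90aa1 and Hsph1, 1 point for each library left out, with the threshold of 0.05 as a dashed line. Hspa8 lies above the line only without Old 16 h, at 0.0914, and Hsp90aa1 in 5 of the 11 fits.

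Islet transcripts were also high in the 16 h libraries. The summed level of islet markers was 761.2 CPM in Young 16 h and 856.1 CPM in Old 16 h, 652.1 CPM in Young 20 h, and 39.91 to 273 CPM in the other 8 libraries. Old 16 h was also the lowest of the 11 for summed fibroblast markers, 77.6 CPM, and macrophage markers, 15.69 CPM. Young 16 h held 443.7 and 49.42 CPM of these. Whether these differences had a part in the heat shock levels was not tested. Young 12 h, the highest library for Hsph1, had the largest share of mitochondrially encoded counts of the 11, 8.84% in a range from 5.39%, and the part of this in its levels was not tested either. The immediate early genes, which respond within minutes to handling and other stimuli, summed to 107.3 CPM in Old 16 h, the lowest of the 11, and to 143 CPM in Young 16 h.

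Within each library, Hsp90aa1 made up a changing share of the counts of both cytosolic HSP90 genes, a measure that does not depend on scaling between libraries. In Young the share was 8.99% at 8 h (exact 95% binomial interval 6.9 to 11.5%), 20.1% at 12 h, 27.8% at 16 h (24.9 to 30.9%), 15.1% at 20 h and 20.1% at 24 h. In Old it was 9.49% at 4 h (7.54 to 11.8%), 8.89% at 8 h, 12.1% at 12 h, 18.4% at 16 h (16.1 to 21%), 18.5% at 20 h and 18.1% at 24 h. The share was lowest at 8 h in Young and at 4 and 8 h in Old, and highest at 16 h in Young, while the Old libraries from 16 to 24 h lay within each other's counting intervals.

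The J-domain cochaperones, which deliver substrates to HSP70 and stimulate its ATPase, had too few counts to be tested with the rest. Dnaja1 had 1, 17, 9, 3 and 9 counts in Young from 8 to 24 h and 4, 9, 10, 8, 8 and 4 counts in Old from 4 to 24 h. Dnajb1 had 5, 9, 5, 3 and 4 counts in Young and 4, 5, 8, 3, 3 and 3 counts in Old. The 12 h library was the highest of its age for both genes in both ages, and the counting intervals of Dnajb1 all overlapped. The interval of Dnaja1 in Young 12 h did not overlap those in Young 8 h and Old 4 h. In a fit with no filter on low counts, where 0.683% of 26337 genes were called, neither was called (edgeR adjusted p = 0.694 for both). That fit called 3 of the 10 genes, adding Hsph1 (edgeR adjusted p = 7.63e-05) to Hspa8 and Hsp90aa1. The log2 amplitude of Hsph1 hardly moved, from 0.91 with the filter to 0.93 without it, so its smaller p does not reflect a larger curve. With the filter, its adjusted p was 0.683 in DESeq2 (unadjusted p = 0.0514) and 0.184 in limma-voom.

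The strictly inducible HSP70 pair, Hspa1a and Hspa1b, lay at the limit of detection. Hspa1a had 2 counts in Young 12 h and 0 in the other 10 libraries of the fit, where 3 counts, the floor for a count of 0, equal 2.25 to 3.15 CPM. Hspa1b had 6 counts in Young 12 h, 5.11 CPM, and 0 to 2 counts in the other 10 libraries of the fit. Young 4 h, outside the fit, held 3 counts of Hspa1a and 4 of Hspa1b. Shared sequence limits both genes: 47.1% of the windows of 100 bases of the Hspa1a transcript occurred unchanged in Hspa1b, and 49.9% the other way. Reads from these shared windows could not be assigned surely to either gene.

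Cirbp was highest early in the day in both ages, though on few counts (chromosome 10, 80165990 to 80172786). Young had 13 counts at 8 h and 5, 1, 5 and 5 counts from 12 to 24 h, or 12.1 CPM at 8 h and 1.05 to 4.92 CPM later. Old had 18 counts at 4 h, 10 at 8 h and 7, 7, 6 and 4 counts from 12 to 24 h, or 13.5 CPM at 4 h and 3.47 to 5.78 CPM from 12 h on. The earliest library of each age was the highest of its age, but most counting intervals overlapped. That of Old 4 h, 7.99 to 21.3 CPM, overlapped those of all later Old libraries. That of Young 8 h, 6.45 to 20.7 CPM, lay clear only of Young 16 h. Cirbp had too few counts for the filter. Without it the log2 amplitude was 0.81 with a peak at 6.0 h and did not pass the test (edgeR adjusted p = 0.604, unadjusted p = 0.0194), and least squares gave 0.65 ± 0.24 (SE) and 5.9 ± 1.3 h.

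Rbm3 showed no called curve. Its level ran from 19.6 to 27 CPM with a median of 20.7 CPM in Young, and from 14.7 to 31.9 CPM with a median of 27.9 CPM in Old. The lowest Old library, at 24 h, stood below the other 5, and the ages overlapped. The log2 amplitude was 0.18 and did not pass the test (edgeR adjusted p = 0.796). Both cold inducible genes correlated over the 11 libraries with a Pearson r of 0.54 and a Spearman rho of 0.74, as a description of libraries that share depth and scaling.

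**Figure D3:**
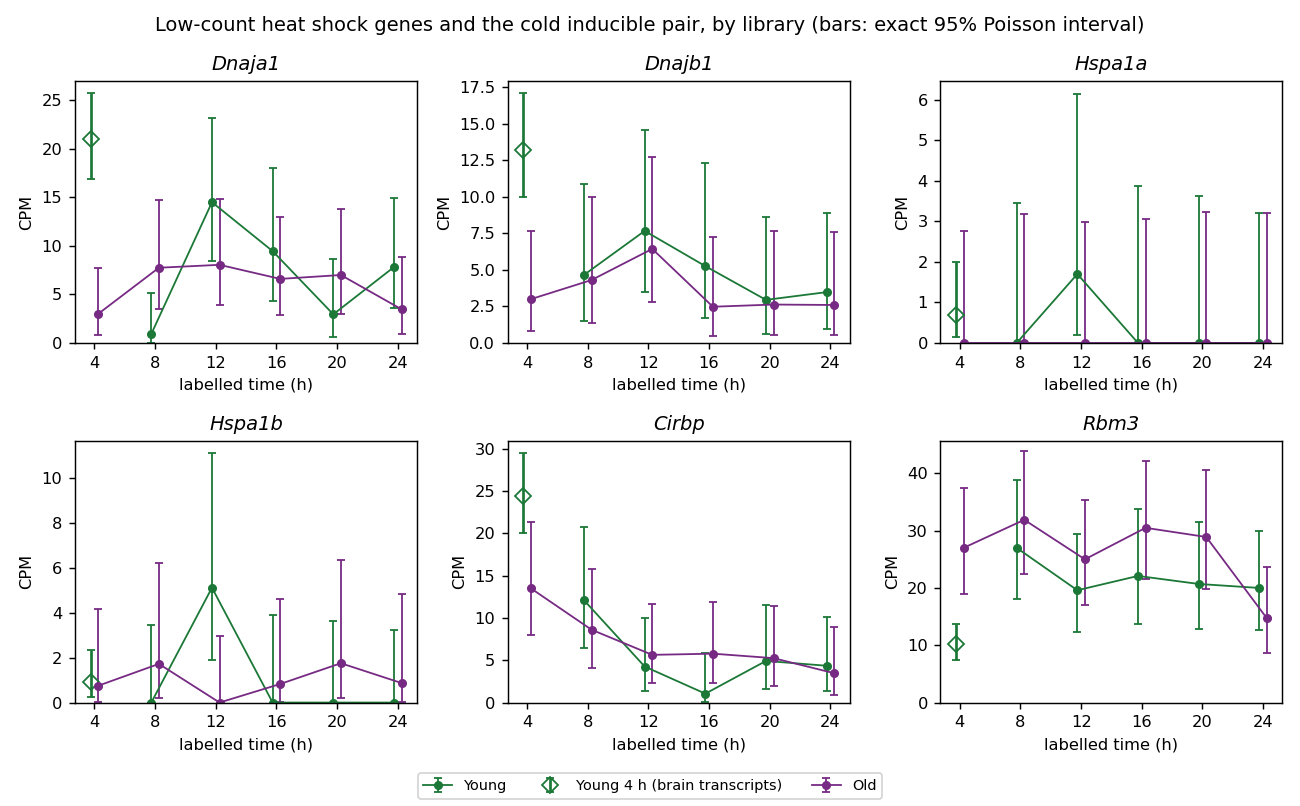
CPM of Dnaja1, Dnajb1, Hspa1a, Hspa1b, Cirbp and Rbm3 against labelled time in hours, 1 point per library, with exact 95% Poisson intervals and an open diamond for Young 4 h. Cirbp stood at 12.1 CPM at 8 h in Young and 13.5 CPM at 4 h in Old, and at 5.78 CPM or less from 12 h on.

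Cirbp ran opposite to some of the heat shock genes over the 11 libraries and not to others. Pearson's r was -0.89 between Cirbp and Hsp90aa1 (Spearman rho -0.75), -0.68 between Cirbp and Hsph1, -0.60 between Cirbp and Hspa8 and -0.56 between Cirbp and Dnaja1. It was -0.18 with Hsp90ab1 (rho 0.12) and -0.16 with Dnajb1 (rho -0.11). Within libraries, Cirbp made up 11.4% of the counts of Cirbp and Hspa8 at Old 4 h (exact 95% interval 6.89 to 17.4%) and 9.42% at Young 8 h (5.11 to 15.6%). It made up 0.329% at Young 16 h (0.00833 to 1.82%) and 1.41% at Old 16 h (0.569 to 2.89%). The early and the 16 h intervals did not overlap within either age. The share of Rbm3, with no called curve, in the counts of Rbm3 and Hspa8 fell as well. It was 20.5% at Old 4 h (14.8 to 27.2%) and 7.03% at Old 16 h (5 to 9.57%). At Young 8 h it was 18.8% (13 to 25.9%) and at Young 16 h 6.48% (4.06 to 9.74%). These shares cannot tell a fall of Cirbp from a rise of Hspa8. Between pairs of the 6 heat shock genes other than Hspa1a and Hspa1b, r ran from 0.07 for Hsp90aa1 with Dnajb1 to 0.83 for Hspa8 with Hsp90aa1. It was 0.78 for Hsph1 with Hsp90aa1, 0.75 for Hspa8 with Hsph1, 0.39 for Hsp90aa1 with Hsp90ab1 and 0.27 for Hsph1 with Hsp90ab1. These coefficients describe 11 libraries of 2 ages in which points share depth and scaling.

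**Figure D4:**
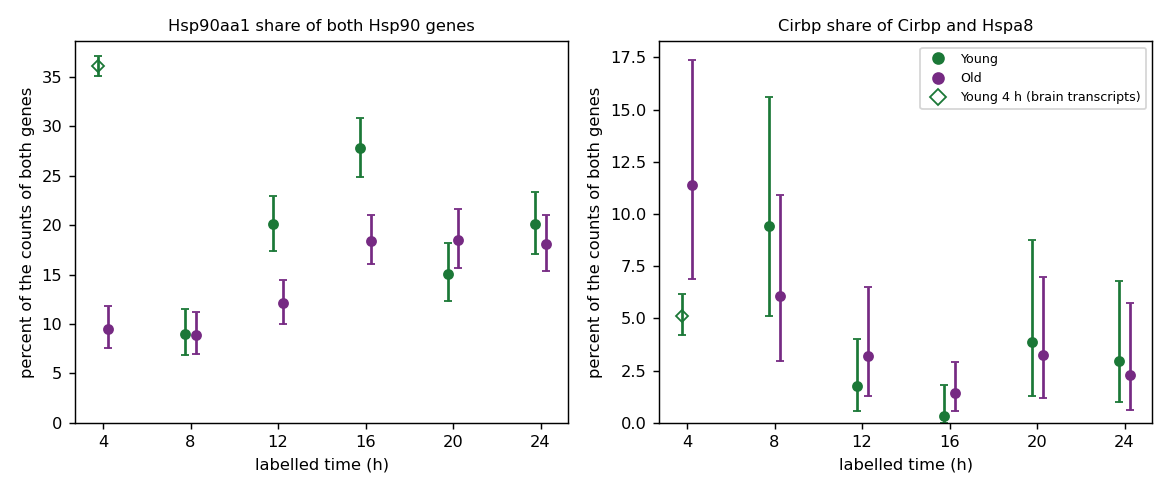
Share (percent) of Hsp90aa1 in the counts of both cytosolic HSP90 genes, left, and of Cirbp in the counts of Cirbp and Hspa8, right, against labelled time in hours, 1 point per library with exact 95% binomial intervals. The Hsp90aa1 share was 8.99% at 8 h and 27.8% at 16 h in Young, and the Cirbp share stood at 11.4% in Old 4 h and 1.41% in Old 16 h.

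None of the 5 tested genes differed with age past the threshold. The edgeR test called 0 of the 5 for Old against Young, where 0.205% of all genes were called, and 0 of the 5 had an unadjusted p under 0.05. DESeq2 and limma-voom also called 0. The log2 difference, Old minus Young, was -0.61 ± 0.31 (SE) for Hsph1 (edgeR adjusted p = 0.832, unadjusted p = 0.0623), with means of 32.6 ± 20.4 CPM (SD, n = 5) in Young and 20.4 ± 13.4 CPM (n = 6) in Old. The Old mean includes Old 4 h, at 3 CPM the lowest of all, and the Young mean has no 4 h library. With collection time as the replicate block the Hsph1 difference was -0.42 (edgeR unadjusted p = 0.151). With each library left out in turn the Hsph1 difference ran from -0.88 without Young 20 h to -0.21 without Young 12 h, and was not called. The difference was -0.27 ± 0.20 for Hsp90aa1 (from -0.47 without Young 20 h to -0.10 without Young 16 h), 0.10 ± 0.18 for Hspa8 and 0.11 ± 0.12 for Hsp90ab1. Mean levels of Hspa8 were 188 ± 88.6 CPM in Young and 186 ± 109 CPM in Old, a difference far inside the spread over times. For Rbm3 the log2 difference was 0.27 ± 0.21 (adjusted p = 0.929). At the 5 times with a library of each age, Old was higher for Hsp90ab1 at all 5 times, for Rbm3 and Hspa8 at 4, for Hsp90aa1 at 3 and for Hsph1 at 2. The median log2 difference over these times was 0.07 for Hsp90ab1, 0.33 for Rbm3, 0.19 for Hspa8, 0.05 for Hsp90aa1 and -0.2 for Hsph1.

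The curves were also fitted for each age. In Young the edgeR test called 0 of the 5, against 0.171% of all genes, and 3 had an unadjusted p under 0.05: Hspa8 (log2 amplitude 0.76, adjusted p = 0.648), Hsp90aa1 (0.95, adjusted p = 0.405) and Hsph1 (0.76, adjusted p = 0.902). Leaving out Young 20 h or Young 24 h brought Hsp90aa1 in Young past the threshold (adjusted p = 0.00613 and 0.00205). In Old it called 0 of the 5, against 0.752% of all genes, and the same 3 had an unadjusted p under 0.05: Hspa8 (0.78, adjusted p = 0.0526), Hsph1 (1.21, adjusted p = 0.112) and Hsp90aa1 (0.74, adjusted p = 0.137). Hspa8 in Old passed in 6 of the 11 fits that left out a library, namely Young 8, 16, 20 or 24 h, Old 12 h or Old 20 h, with an adjusted p down to 0.0101. Hsp90aa1 in Old passed without Young 20 h (0.0254) or Young 24 h (0.0132), and Hsph1 in Old without Young 8 h (0.0208) or Young 24 h (0.03). DESeq2 and limma-voom called 0 of the 5 in either age. Amplitudes in Young moved widely with single libraries: for Hspa8 from 0.47 without Young 16 h to 1.40 without Young 24 h, for Hsp90aa1 from 0.48 to 1.78 and for Hsph1 from 0.40 without Young 12 h to 1.89 without Young 24 h. In Old, that of Hspa8 was 0.35 without Old 16 h, and that of Hsph1 ran from 0.85 without Old 4 h to 1.53 without Old 8 h.

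Fitted peaks in Old lay later than those in Young for Hspa8, 16.0 ± 1.5 h (SE) against 15.0 ± 1.6 h, for Hsp90aa1, 18.5 ± 0.9 h against 16.4 ± 1.8 h, and for Hsph1, 17.3 ± 1.3 h against 13.8 ± 3.1 h, by least squares. By the same fit, Hsp90ab1 peaked earlier in Old, 13.3 ± 2.2 h against 13.7 ± 1.4 h. On few counts, so did Dnaja1, 13.6 ± 1.3 h against 16.1 ± 3.6 h. Dnajb1 did likewise, 10.2 ± 1.5 h against 11.8 ± 1.6 h. The order was not the same in every fit: without Young 20 h the edgeR peak of Hspa8 in Young was 16.5 h, against 16.1 h in Old. The Young peak of Hsph1 ran from 9.0 h without Young 8 h to 16.2 h without Young 12 h. The test of the difference between the curves called 0 of the 5 and 0% of all 5852 genes with edgeR, of which 238 had an unadjusted p under 0.05, and DESeq2 and limma-voom called 0 genes. Hsph1 came nearest, with a log2 amplitude of the difference of 1.08 (unadjusted p = 0.0504, adjusted p = 1). That value ran from 0.75 without Young 20 h to 2.03 without Young 8 h (adjusted p = 0.178), and was 1.68 without Young 24 h (0.244). For Hsp90aa1 the unadjusted p was 0.212 and for Hspa8 it was 0.765.

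Including Young 4 h removed the called curves. With all 12 libraries the edgeR test called 0 of the same 5 genes for the shared curve, against 0.155% of 5808 genes, and 0 of the 5 had an unadjusted p under 0.05. DESeq2 and limma-voom with that library also called 0. The log2 amplitude of Hspa8 fell to 0.28 (adjusted p = 0.802) and the peak of Hsp90aa1 moved from 17.4 h to 0.1 h. Young 4 h held more of 7 of the 10 transcripts than any other library: 451 CPM of Hspa8, 196 of Hsph1, 741 of Hsp90aa1, 1310 of Hsp90ab1, 21 of Dnaja1, 13.2 of Dnajb1 and 24.4 of Cirbp. Rbm3 had 10.3 CPM there, below the lowest of the other 11, 14.7 CPM. For age with 12 libraries, 0 of the 5 were called, against 0.0172% of all genes, and the log2 differences became -1.22 ± 0.55 for Hsp90aa1 and -1.51 ± 0.69 for Hsph1 (edgeR adjusted p = 0.784 for both). Without the filter and with Young 4 h, the curve of Cirbp in Young passed (edgeR adjusted p = 0.033), as did the difference between the curves of Hsph1 (0.0435). By p, Cirbp ranked only 1043 and Hsph1 112 in these tests over the whole table. All genes ranked above them passed as well. The tissue of that library and its labelled time cannot be told apart.

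Other chaperones were read from lists chosen with earlier results of these data known. Of 30 further cytosolic chaperones and cochaperones, 20 were tested and 0 were called for the shared curve by edgeR, with 1 at an unadjusted p under 0.05, and their median log2 amplitude was 0.18. Dnaja2, a J-domain cochaperone close to Dnaja1, had the smallest p (log2 amplitude 0.42, peak 14.1 h, adjusted p = 0.203). All 8 subunits of the cytosolic chaperonin, which folds actin and tubulin, were tested and 0 were called, with 2 at an unadjusted p under 0.05. Of these Cct5 had a log2 amplitude of 0.32 (adjusted p = 0.275). Of 6 mitochondrial chaperones 5 were tested and 0 called, with 1 at an unadjusted p under 0.05, Hspa9, the mitochondrial HSP70 (0.29, adjusted p = 0.341).

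Chaperones of the endoplasmic reticulum, where digestive enzymes are folded, had the most calls of the 6 lists. All 15 were tested, 5 were called for the shared curve, and 10 had an unadjusted p under 0.05, where 1.49% of all 5852 genes were called and 698 had an unadjusted p under 0.05. Their median log2 amplitude was 0.41, and 14 of the 15 peaked between 12 and 20 h, as did 34.5% of all genes tested. Creld2 had a log2 amplitude of 0.84 with a peak at 17.3 h (edgeR adjusted p = 0.00028), Hyou1, the HSP110 relative of this compartment, 0.71 (0.000817), Hsp90b1, its HSP90, 0.74 at 18 h (0.000894), and Hspa5, its HSP70, 0.78 at 17.1 h (0.00197). Their peaks thus stood near the 17.4 h of Hsp90aa1. Summed over the list, the level was 5839 CPM in Young 16 h and 5957 CPM in Old 16 h, the highest of each age. With Young 4 h, 0 of the 15 were called by edgeR and 9 had an unadjusted p under 0.05, against 9 of 5808 genes called and 611 with an unadjusted p under 0.05.

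**Figure D5:**
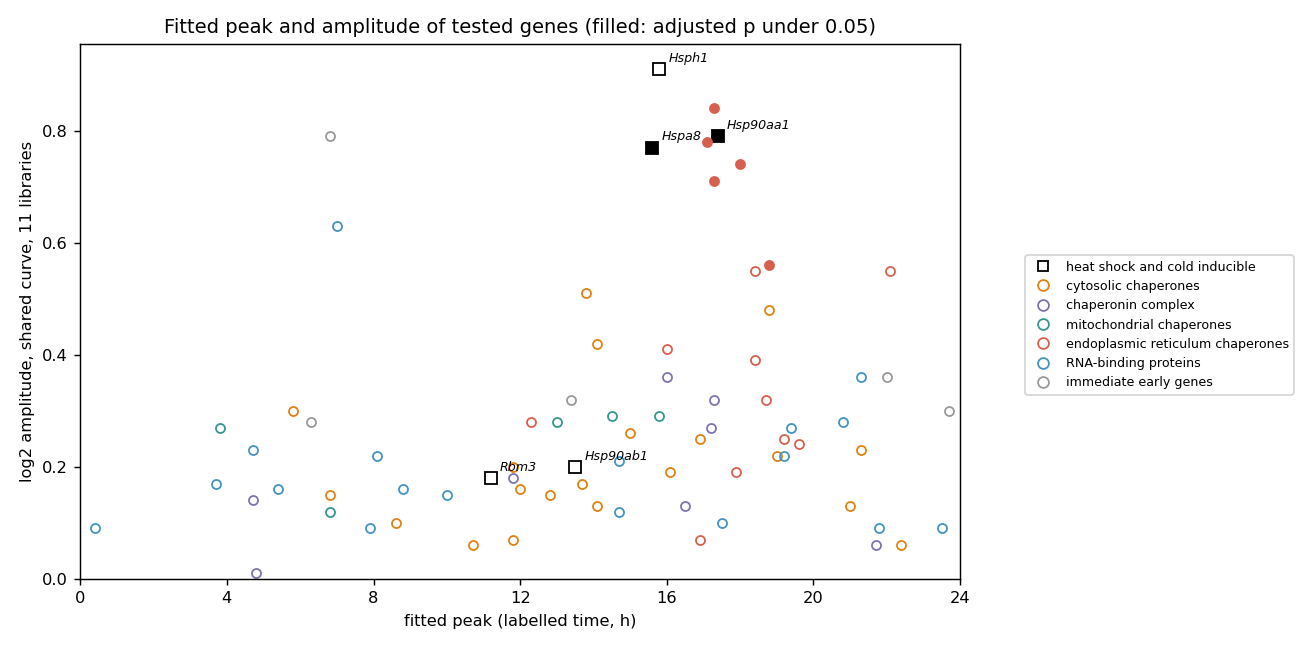
Fitted log2 amplitude against fitted peak in hours for every tested heat shock and cold inducible gene (squares) and for the tested genes of 6 further lists (circles), from the shared curve over 11 libraries, filled where the adjusted p was under 0.05. Hspa8, Hsp90aa1 and the 5 called chaperones of the endoplasmic reticulum lie together between 15.6 and 18.8 h.

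On the cold side, 18 RNA-binding proteins related to or acting with Cirbp and Rbm3 were all tested, and 0 were called by edgeR for the shared curve, with 2 at an unadjusted p under 0.05. Hnrnpa2b1, an RNA-binding protein of splicing and RNA transport, had a log2 amplitude of 0.28 with a peak at 20.8 h (edgeR adjusted p = 0.25). Of 14 immediate early genes 5 were tested and 0 called, with 1 at an unadjusted p under 0.05, Ier2 (0.79, peak 6.8 h, adjusted p = 0.24). For age, 0 genes of any of the 6 lists were called, with 0 to 2 per list at an unadjusted p under 0.05. DESeq2 and limma-voom were not counted over these lists.

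Genes whose levels ran most like the mean profile of the 4 tested heat shock genes over the 11 libraries were Copb1 (Pearson r 0.94), Papola (0.89), Trip11 (0.89), Uso1 (0.88) and Ppp3r1 (0.87) among 2785 candidates with a mean of at least 20 CPM. Of these 5, Copb1, Trip11 and Uso1 encode proteins of the Golgi and its vesicles. The share of such genes among the candidates was not counted. The most opposite were Vps13c, Gtf3c1 and Pdcd4, each at r = -0.85. Most like the mean profile of Cirbp and Rbm3 were Eif4ebp1 (0.95), Phldb1 (0.95), Cabp2 (0.94), Clstn1 (0.93) and Ang (0.91), and most opposite Rbm25 (-0.88), Yme1l1 (-0.88) and Mapre1 (-0.86). These are descriptions of 11 libraries that share depth and scaling.

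Sequence shared with other genes bears on how surely reads were counted. Windows of 100 bases were taken along the longest coding transcript. Of these, 63.4% for Hspa8, 47.5% for Hsp90aa1, 24% for Dnaja1 and 8.58% for Rbm3 occurred unchanged in transcripts of another gene. For Hsph1, Hsp90ab1, Dnajb1 and Cirbp the share was 0%. Most of the other genes listed were predicted ones, named Gm and a number. Those that shared most windows with Hspa8 and Hsp90aa1 had no row under that name in the count table. The sources used here do not say how the counting treated such reads, and the levels of Hspa8 and Hsp90aa1 are less certain than those of Hsp90ab1 and Hsph1.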

How the data were processed

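Per the labels' protocols, TRIzol and RNeasy columns gave the RNA, which was read from both ends on a NovaSeq. The authors deposited whole-number counts for each gene symbol. Per the submitters' processing notes, STAR aligned the reads and HTSeq counted them on GRCm38 (mm10), but the workbook name refers to featureCounts. The sources used here state neither the strand setting nor how reads matching several genes were treated. Groups and times came from the labels.

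Genes passed filterByExpr with age as group, and TMM set the scaling. Quasi-likelihood models in edgeR 4.0.16 (R 4.3.3) held age and a sine and cosine with a period of 24 h, were tested over the whole table with Benjamini-Hochberg adjustment and called at 0.05. Fits used 11 libraries, or 12 with Young 4 h. Least squares used log2 CPM with a prior count of 2. CPM is counts over TMM-scaled totals of the 12 libraries. Exon lengths and windows of 100 bases came from the GENCODE annotation of GRCm38. Intervals (Poisson, and exact Clopper-Pearson for shares) are at 95% and cover counting error only, as does the floor of 3 counts. DESeq2 1.42.0 and limma-voom (limma 3.58.1) were alternatives, with those in the closing section. No pair of libraries was taken as a copy, since the closest, Young 20 h with Young 24 h, had a chi-square of 2.49 for each gene. Fits were tested on simulated counts. Figures used matplotlib 3.10.9 in Python 3.11.15.

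The genes, the lists and the tests were chosen with earlier results of these data known. All 10 genes were named, with up to 4 genes per list of smallest p (a gene that this takes is not reported here), and the 5 most and 3 least like genes per profile.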

Additional observations from a re-analysis of the deposited data

Results flagged for a closer look

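Dixon's test at its 95% critical value compared the highest or lowest value with the rest in 29 groups of 4 to 10 libraries. In 7 groups a library stood far from the others. By chance the test flags about 1 in 20 independent groups of normally spread values. These groups overlap, since Young entered with and without the 4 h library, so the 7 cannot be set against that rate. Hspa8 in Old stood out at 16 h with 404 CPM, next to 170 CPM. In Young with the 4 h library, that library stood out for Hsph1 with 196 CPM (next 65.6), for Hsp90aa1 with 741 CPM (next 254) and for Hsp90ab1 with 1310 CPM (next 660). It also held central neuron markers at 954.4 CPM. Young 12 h stood out for Hspa1b with 5.11 CPM, 6 counts, among the 6 Young libraries (next 0.912 CPM) and among the 5 without Young 4 h (next 0 CPM). It stood out for Hspa1a with 1.7 CPM, 2 counts, among the 5, the rest being at 0, which is within the counting error of a count of 0. Among the 5, only Young 12 h held counts of Hspa1a or Hspa1b, which fixes Dixon's ratio at 1 whatever the count.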

How the results depend on the processing

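The shared curve called 2 of the 5 tested genes under RLE scaling, scaling without digestive enzymes, the stricter filter of at least 10 CPM in 6 libraries, DESeq2 and limma-voom, and 3 without a filter. Over all genes it called 85, 85, 75, 58 and 71, in that order, and 180 of 26337 without a filter. It called 0 with Young 4 h in edgeR, DESeq2 and limma-voom, 0 without both 16 h libraries, 1 without both 8 h libraries, and 0 to 3 with each library left out. Over all genes these counts were 9, 40 and 8 with Young 4 h, 41 without both 16 h libraries and 36 without both 8 h libraries. With each library left out they ran from 37 to 105. In Young 0 were called, 1 without a filter and 0 to 1 with each library left out, against 28 of 26337 and 8 to 21 over all genes. In Old 0 were called, 3 without a filter, 2 in a separate fit of Old and 0 to 3 with each library left out. Without the filter, Hspa8, Hsph1 and Hsp90aa1 ranked 40, 57 and 67 by p in Old, and all genes ranked above them passed as well. No count over all genes is given here for the separate fit, so its 2 calls cannot be set against the whole table. Over all genes, 20 to 78 were called in Old with each library left out, so the member counts moved along with the whole table. Age called 0 of the 5 in the alternatives run. The difference between curves did so except for Hsph1 without a filter and with Young 4 h together (edgeR adjusted p = 0.0435). There Hsph1 ranked 112 by p, and all genes ranked above it passed as well. Age was also fitted with collection time as the replicate block, which pairs libraries by labelled time and called 0. With Young 4 h, shared peaks moved by over 6 h for Hsph1 (log2 amplitude 0.18, DESeq2 0.10), Hsp90aa1 (0.32 in both) and Hsp90ab1 (0.19, DESeq2 0.18). So did peaks in Young, in edgeR, DESeq2 and limma-voom, for Hsph1 (1.20, 1.19, 0.66), Hsp90aa1 (0.68, 0.65, 0.15), Hsp90ab1 (0.40, 0.39, 0.25) and Rbm3 (0.32, 0.32, 0.42), and in the first 2 for Hspa8 (0.30 in both). With Young 4 h the age difference turned negative for Hspa8 (-0.42 in edgeR and DESeq2, -0.22 in limma-voom, -0.25 with the replicate block) and Hsp90ab1 (-0.20, -0.21, -0.08, -0.13). For Hspa8 it was also -0.02 with no time term, and -0.13 to 0.23 with each library left out. Rbm3 amplitudes ranged from 0.14 to 0.26 in Young and from 0.01 to 0.47 in Old with each library left out, and its shared amplitude was 0.06, with a moved peak, without both 24 h libraries. The cause of these shifts was not tested. Totals of 1030189 to 1404038 counts kept 5 of the 10 genes out of the filtered fits, which leaves them with wide counting intervals.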
